A study of Mus musculus with 23 samples.

Results

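The tibialis anterior muscle of mice given oxaliplatin was compared with that of mice given vehicle, over all genes of the muscle count table. The 9 libraries, 5 from oxaliplatin mice and 4 from vehicle mice, were taken by their titles out of 23 libraries that also cover fat and hypothalamus. All mice were of the C57BL/6 strain, tissue was collected after 8 weeks, and the dose was 10 mg/kg. The sources used here give no allele, age, sex or dosing schedule. Oxaliplatin mouse 5 is titled as treated but carries vehicle in its treatment entry, and it was counted as oxaliplatin. With that mouse set to vehicle, the edgeR quasi-likelihood test called 0 genes (701 had an unadjusted p under 0.05). No call below would stand if the treatment entry were right. With the mouse left out, 8 genes were called, 7 of them among the 24 called below. Each library bears its own mouse number within its group. Nothing further says how the samples were taken, so p-values measure the spread between these libraries.

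Oxaliplatin is a platinum compound whose adducts and crosslinks on DNA activate the p53 pathway in dividing cells, and its known side effects include neuropathy and loss of muscle. The tibialis anterior is a fast muscle of the lower leg, built mostly of fibres that run on glycolysis, with capillaries, pericytes, connective tissue, nerve and resident immune cells between them. Signals from hormones, from the circadian clock and from low oxygen all act on the transcription of fibre and vessel genes in this tissue.

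Levels are given as CPM, the usual normalised count relative to a fixed library total, after scaling between libraries by TMM, in the order vehicle mice 1 to 4 and oxaliplatin mice 1 to 5. Each change is the log2 ratio, treated over control, ± SE, and a gene was called at a Benjamini-Hochberg adjusted p under 0.05 in the edgeR quasi-likelihood test. Library totals ran from 22.4 M to 32.2 M counts with oxaliplatin and from 27.3 M to 31.2 M with vehicle. Transcripts of the fibre led in both groups, and the 10 muscle fibre markers summed to 148207 to 192217 CPM with vehicle and 151606 to 193324 with oxaliplatin. Acta1, the actin of skeletal muscle, took a mean of 5.81% of counts, and Ckm, muscle creatine kinase, took 3.81%. Mitochondrially encoded genes took 17.5 ± 5.43% of counts in vehicle and 16.0 ± 2.17% in oxaliplatin libraries (SD, n = 4 and 5, exact two-sided permutation p = 0.579, where the smallest p the design allows is 0.00794).

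The libraries varied within each group as well as between them. On the first principal component (31.2% of the variance) vehicle mice 1 and 2 scored 31.6 and 29.5, and vehicle mice 3 and 4 scored -31.1 and -58.7. Genes of the low end were Lep and Adipoq, hormones of fat cells, Pck1, Hp and the bone matrix gene Ibsp, and genes of the high end included the myosin light chains Myl3 and Myl10. On the second component (19.9%) oxaliplatin mice 1 and 5 scored 39.2 and 35.4, the other oxaliplatin mice 1.54 to 6.69, and the vehicle mice -25.9 to -11.2. Its high end held Cdkn1a, Pnmt, Mt2 and the acetylcholine receptor subunit Chrna9, and its low end held Col1a1, Kera and the immunoglobulin genes Ighm and Igkc.

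**Figure D1:**
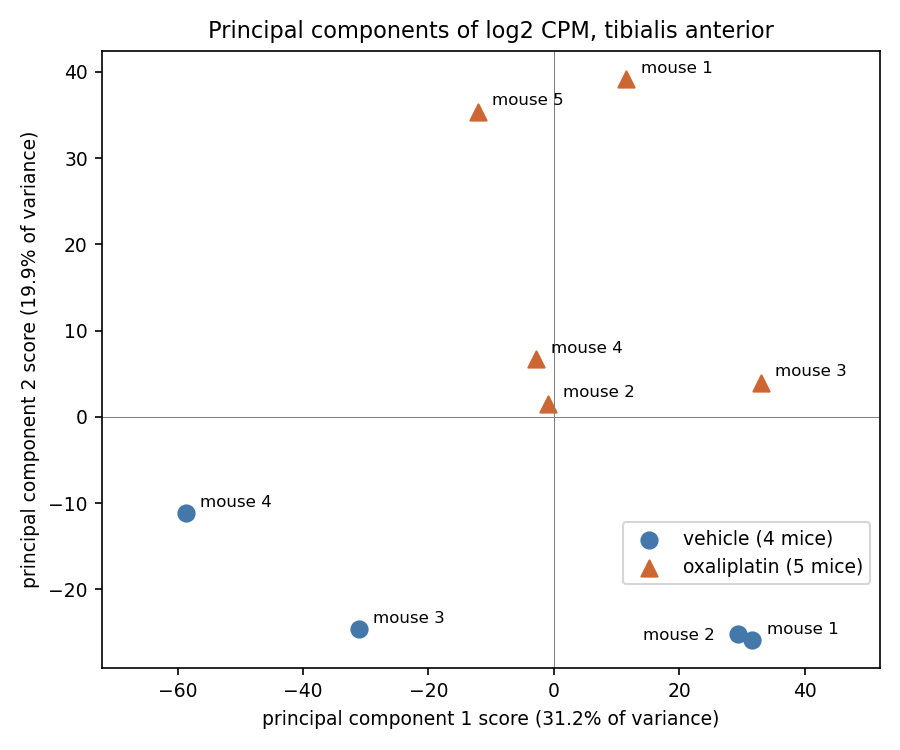
Scores of the 9 libraries on principal components 1 and 2 of log2 CPM over 14737 tested genes, with vehicle mice as circles and oxaliplatin mice as triangles. Vehicle mice 3 and 4 lie apart from vehicle mice 1 and 2 along the first axis, and oxaliplatin mice 1 and 5 lie highest along the second.

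Of 14737 tested genes 24 were called, which is 0.163%. Of these, 17 were higher with oxaliplatin (0.115%) and 7 were lower (0.0475%). In all 24 the 5 oxaliplatin libraries lay on one side of the 4 vehicle libraries, as they did in 573 of the tested genes (3.89%; 2.18% higher and 1.7% lower). At an unadjusted p under 0.05 there were 1414 genes (9.59%), 708 higher (4.8%) and 706 lower (4.79%). The median log2 fold change of all tested genes was -0.01, and 7040 of them were above 0. Pfkfb3 and Pnmt were called in each of the 9 fits that left out 1 library. The other 22 genes lost the call in at least 2 of these fits. None of the 24 changed sign, which leaving out 1 library could hardly bring about where the groups do not overlap. The number of calls was 3 without vehicle mouse 3 and 2 without oxaliplatin mouse 1, the lowest in each group.

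**Figure D2:**
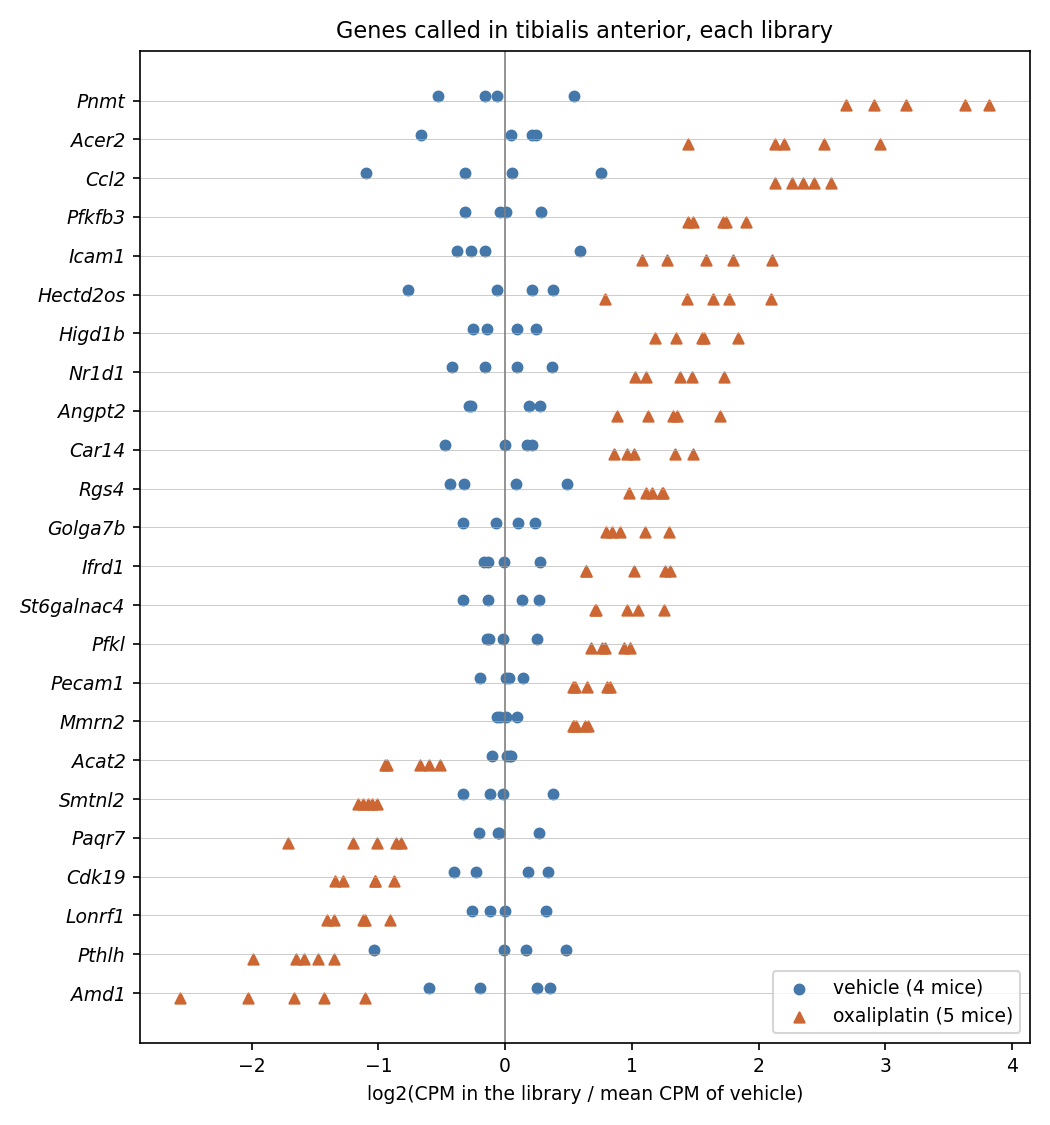
Each library's CPM over the vehicle mean, on a log2 axis, for the 24 called genes in order of log2 fold change, with vehicle mice as circles and oxaliplatin mice as triangles. No triangle overlaps the circles of its gene, and the spread within the oxaliplatin group is narrow for Mmrn2 and Smtnl2 and wide for Pnmt, Acer2 and Amd1.

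Pfkfb3 and Pfkl, genes of the phosphofructokinase step of glycolysis, rose. Pfkfb3 makes fructose 2,6-bisphosphate, the strongest activator of phosphofructokinase, and had 73.7, 48.5, 59.0 and 61.0 CPM with vehicle and 169.6, 202, 199.5, 165 and 226 with oxaliplatin. The lowest treated mouse was over 2 times the highest control (1.67 ± 0.15, edgeR adjusted p = 0.00106). Pfkl, the liver-type subunit of phosphofructokinase itself, had 9.89, 9.98, 10.8 and 13.0 CPM with vehicle and 17.5, 18.9, 18.6, 21.6 and 20.9 with oxaliplatin (0.83 ± 0.12, edgeR adjusted p = 0.0278). Its groups were close but did not overlap, and its call was kept in 1 of the 9 leave-one-out fits, the one without vehicle mouse 4 (highest adjusted p 0.123).

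The rest of the pathway lay around 0. Pfkm, the muscle subunit of phosphofructokinase, gave -0.21 ± 0.17 at 4932 and 4253 CPM. The sister genes of Pfkfb3 gave -0.24 ± 0.16 for Pfkfb1, 0.12 ± 0.15 for Pfkfb2 and -0.27 ± 0.18 for Pfkfb4, and each overlapped between the groups. Over the 32 genes listed for glycolysis and glycogen, all tested, 16 were above 0 and 16 below, with a median of -0.01, as in all genes. Past the calls of Pfkfb3 and Pfkl, 2 more were higher and 2 lower at an unadjusted p under 0.05. Over all tested genes these shares were 4.8% and 4.79%. The 2 lower were Phka1, a subunit of the kinase that activates glycogen phosphorylase (-0.48 ± 0.19), and Ugp2, which makes the glucose donor of glycogen (-0.36 ± 0.14). Both overlapped between the groups.

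One RefSeq promoter window of Pfkfb3 holds the E-box CACGTG, the letters that clock and low-oxygen factors of the basic helix-loop-helix class bind. It is shown because Pfkfb3 had the smallest p of all genes and the clock gene Nr1d1 was also called. The 250 bases before this start (GRCm38.p6, chr2:11502091-11502340, minus strand) carry the motif in capitals, at positions -53 to -48 from the start.
Pfkfb3: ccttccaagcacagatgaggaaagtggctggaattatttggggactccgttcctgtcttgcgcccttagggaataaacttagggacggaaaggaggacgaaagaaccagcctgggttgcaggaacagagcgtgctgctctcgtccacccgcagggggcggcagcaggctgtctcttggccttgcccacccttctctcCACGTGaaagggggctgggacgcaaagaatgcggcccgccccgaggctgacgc
Motifs were searched on both strands in the 250 bases before the start in each of 32851 RefSeq windows. The 50 bases after the start, also in the windows, were not searched. The E-box was found in 6.02% of the windows. Of the 24 called genes 16 had a window, 19 windows in all, and this was the only one of them with the motif. That 1 of 19 is not above the share in all windows. The part of the motif in the rise of Pfkfb3 was not tested. Before the start, none of the 19 held the D-box TTATGTAA (0.819% of all windows), the glucocorticoid palindrome (0.00913%) or the cAMP element TGACGTCA (1.55%).

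Pnmt, the enzyme that turns noradrenaline into adrenaline, showed the largest rise among the called genes. It had 0.451, 0.733, 0.349 and 0.481 CPM with vehicle and 7.12, 3.25, 4.50, 3.79 and 6.24 with oxaliplatin (3.31 ± 0.31, 95% confidence interval 2.63 to 3.99, edgeR adjusted p = 0.00106). All treated mice were above all controls, with oxaliplatin mice 1 and 5 highest. Its gene (chr11:98386450-98388181, plus strand, GRCm38) starts 1497 bases past the end of Tcap, a sarcomere gene on the same strand. Tcap was at 2162 ± 630.0 CPM with vehicle and 1916 ± 322 with oxaliplatin (SD, -0.17 ± 0.22), and its part in the Pnmt counts was not tested.

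Upstream of Pnmt, Th, which starts catecholamine synthesis, ran from 0 to 0.0283 CPM with vehicle and from 0.05002 to 0.221 with oxaliplatin. These levels are near the floor, and Th did not pass the count filter. Ddc, also listed for synthesis and under the filter, ran from 0.0814 to 0.396 and from 0.0594 to 0.556 CPM, with overlap. Dbh, another listed gene, was absent from the count table. Of the 17 genes listed for catecholamine synthesis, reception and breakdown, 10 were tested, 4 of them above 0, with a median of -0.08. Pnmt was the only one called.

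Acer2, a Golgi ceramidase that yields sphingosine and is a p53 target, rose. It had 1.85, 3.46, 3.39 and 3.03 CPM with vehicle and 16.8, 7.98, 13.5, 12.9 and 22.8 with oxaliplatin (2.33 ± 0.29, edgeR adjusted p = 0.0127). The groups were far apart, with mouse 2 lowest and mice 1 and 5 highest among the treated. The call was lost without vehicle mouse 3, vehicle mouse 4 or oxaliplatin mouse 1 (highest adjusted p 0.0731). Of 27 tested genes of ceramide and sphingosine metabolism 14 were above 0 (median 0.01). Next to Acer2, Cers1, the ceramide synthase of muscle and nerve that makes C18 ceramide, was at 3.47 CPM with vehicle and 1.72 with oxaliplatin (-1.003 ± 0.28, adjusted p = 0.223), and its groups overlapped in 1 treated mouse. The sphingosine 1-phosphate receptor S1pr1 gave 0.39 ± 0.15 and the sphingosine kinase Sphk2 0.37 ± 0.16, neither of which was called.

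Of the listed genes of vessels and their signals, Angpt2, Higd1b, Pecam1 and Mmrn2 rose. Angpt2, a ligand that loosens the contact of endothelium and pericytes through the Tie2 receptor, rose from 3.28 ± 0.671 to 8.09 ± 1.70 CPM (SD, n = 4 and 5, 1.30 ± 0.20, edgeR adjusted p = 0.0278). Higd1b, a pericyte gene, had 2.22, 1.995, 1.57 and 1.70 CPM with vehicle and 5.48, 4.25, 5.55, 6.69 and 4.75 with oxaliplatin (1.52 ± 0.19, edgeR adjusted p = 0.0127). The junction protein gene Pecam1 had 48.4, 52.3, 41.4 and 47.7 and then 84.0, 68.6, 74.3, 69.7 and 82.6 CPM (0.68 ± 0.11, edgeR adjusted p = 0.0443). All treated mice were above all controls in these 3 genes.

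Mmrn2, an endothelial matrix protein that binds angiogenic growth factors, varied little within either group. It had 17.2, 18.1, 19.1 and 17.5 CPM with vehicle and 28.3, 27.9, 26.1, 26.2 and 26.5 with oxaliplatin (0.58 ± 0.09, edgeR adjusted p = 0.0414). Its groups were narrow and apart, and the change was the smallest of the 24. Rgs4, a brake on G protein signals that was on none of the vessel lists, also rose. It had 16.8, 12.8, 8.87 and 9.61 and then 28.4, 28.5, 26.8, 26.0 and 23.6 CPM (1.15 ± 0.17, edgeR adjusted p = 0.0278). Leave-one-out fits kept the call of Higd1b in 7 of 9 (lost without vehicle mouse 3 or oxaliplatin mouse 1, highest adjusted p 0.0731), of Angpt2 in 3, of Rgs4 in 2, and of Pecam1 and Mmrn2 in 0 (highest 0.181). In the same fits Pecam1 gave 0.62 to 0.74 and Mmrn2 0.57 to 0.61.

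The wider vessel lists lay above 0 with small shifts. These lists were chosen with earlier results known and hold the called vessel genes themselves, so they are not separate support for those calls. The same holds for the angiogenic list below. Of 20 tested endothelial markers 16 were above 0 (median 0.25) and 2 were called. At an unadjusted p under 0.05, 8 were higher, against 4.8% of all tested genes. Icam2 (0.95 ± 0.17), the endoglin gene Eng (0.50 ± 0.11) and the von Willebrand factor gene Vwf (0.92 ± 0.22) had groups that did not overlap, without a call. Over all tested genes 2.18% were higher without overlap. The summed endothelial level was 318 to 407 CPM with vehicle and 447 to 496 with oxaliplatin. Of 11 pericyte and smooth muscle markers 10 were above 0 (median 0.31), and their sum was 352 to 482 CPM against 467 to 541, with vehicle mouse 1 inside the treated range. In bulk tissue, more cells of a type and more RNA per cell cannot be told apart.

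Angiogenic signals and their receptors gave 21 of 26 above 0, with a median of 0.20. Their mean level was 0.42, 0.35, 0.37, 0.35 and 0.36 (log2, against the vehicle mean) in oxaliplatin mice 1 to 5, and 0.02, 0.09, -0.10 and -0.01 in vehicle mice 1 to 4. Every treated mouse was above every control. Pgf, a VEGF-family ligand, had 1.07, 0.692, 1.61 and 1.05 and then 3.71, 2.14, 3.20, 2.97 and 3.92 CPM and just missed the threshold (1.52 ± 0.27, edgeR adjusted p = 0.0526). Egln3, an oxygen-sensing prolyl hydroxylase induced by HIF, was at 3.48 to 5.74 and 11.4 to 38.4 CPM (2.17 ± 0.39, adjusted p = 0.0647), and the vessel peptide Apln gave 1.08 ± 0.33. The vessel shifts were smaller against vehicle mice 1 and 2 alone, where the median was 0.10 for the endothelial list, 0.08 for the pericyte list and 0.13 for the angiogenic list. Without vehicle mouse 3 the last 2 were 0.17 and 0.13.

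**Figure D3:**
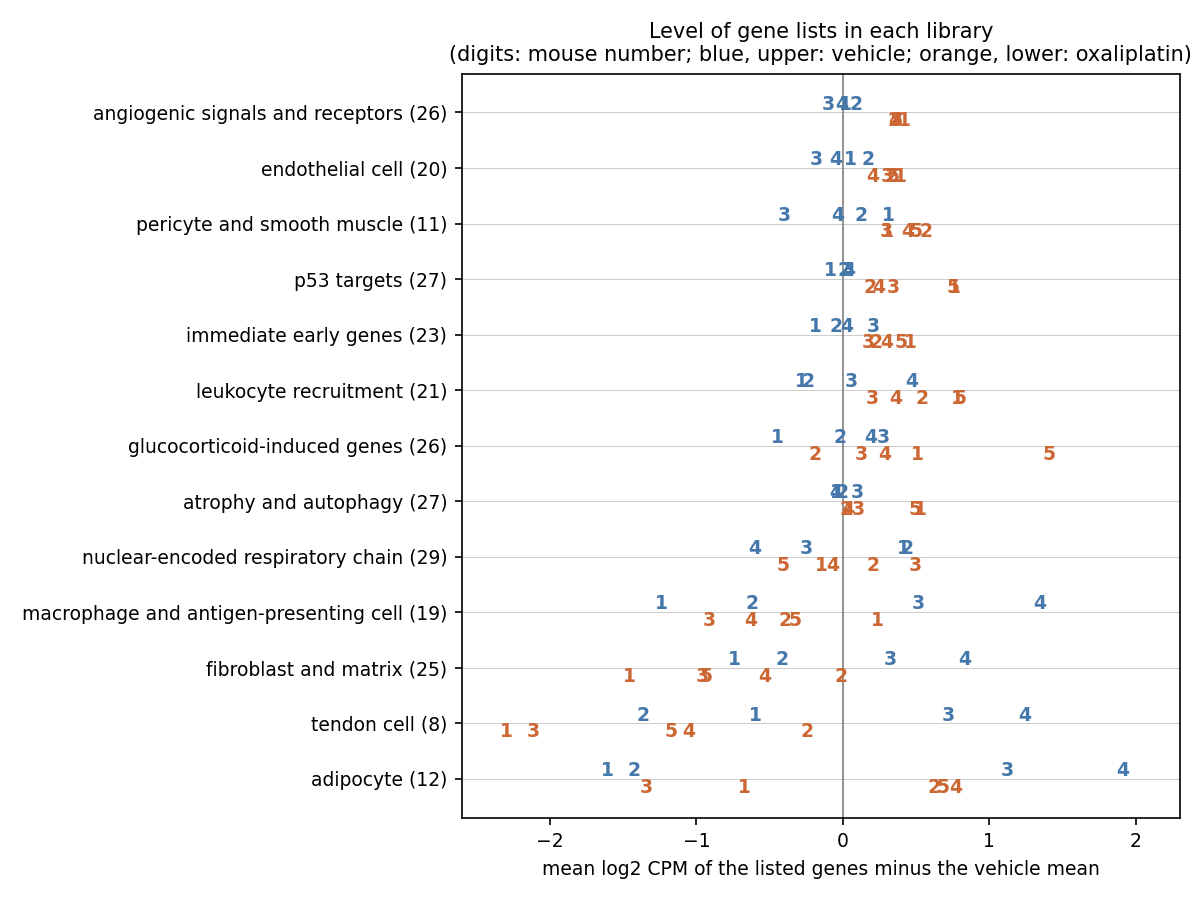
Mean log2 CPM of the tested genes of 13 lists in each library, minus the vehicle mean, with the number of tested genes in brackets. Digits give the mouse, upper blue for vehicle and lower orange for oxaliplatin. The angiogenic level is 0.35 to 0.42 in the oxaliplatin mice, the p53 and atrophy levels are highest in oxaliplatin mice 1 and 5, and the matrix, tendon, macrophage and adipocyte levels are highest in vehicle mice 3 and 4.

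Ccl2 and Icam1, which draw monocytes and hold leukocytes to endothelium, both rose. Ccl2, a chemokine, had 0.451, 0.204, 0.349 and 0.735 CPM with vehicle and 2.59, 2.22, 2.35, 2.08 and 1.90 with oxaliplatin (2.31 ± 0.33, edgeR adjusted p = 0.0211). The treated mice were closely spaced and all above the controls, at a low absolute level. Icam1, an adhesion molecule, had 2.34, 2.16, 2.52 and 4.24 and then 12.1, 6.83, 5.95, 8.43 and 9.77 CPM (1.61 ± 0.25, edgeR adjusted p = 0.0407), and mouse 1 was the highest of the treated. Ccl2 kept its call in 5 leave-one-out fits and Icam1 in 2 (highest adjusted p 0.123 and 0.164).

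The Icam1 promoter is shown because it was the only one of the 19 windows of called genes with GGANNTTCC before the start. These letters are a form of the NF-kB site. The 250 bases before its start (GRCm38.p6, chr9:21015690-21015939, plus strand) carry the match in capitals at positions -153 to -145.
Icam1: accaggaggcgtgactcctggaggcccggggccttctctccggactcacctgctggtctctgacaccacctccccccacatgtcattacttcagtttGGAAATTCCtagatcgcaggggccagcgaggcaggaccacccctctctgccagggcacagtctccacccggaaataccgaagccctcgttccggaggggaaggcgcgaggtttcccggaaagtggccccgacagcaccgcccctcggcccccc
This motif was found on either strand of the 250 bases before the start in 3.59% of all windows. Its part in the rise of Icam1 was not tested. No window for Ccl2 was among the sequences used here.

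Of 21 tested genes of leukocyte recruitment, Ccl2 and Icam1 included, 17 were above 0 (median 0.36). At an unadjusted p under 0.05, 9 were higher and 1 lower, against 4.8% and 4.79% of all tested genes. The median was 0.71 without vehicle mouse 4 and 0.23 without oxaliplatin mouse 5. The lower gene was the chemokine Cxcl14 (-0.80 ± 0.18), whose groups did not overlap. Ackr1, a chemokine receptor of venules, had 1.48, 1.47, 2.66 and 3.03 and then 6.89, 7.70, 3.60, 5.27 and 6.51 CPM (1.46 ± 0.28, edgeR adjusted p = 0.0617). Lrg1, a secreted glycoprotein of inflamed vessels, gave 0.72 ± 0.14 and the chemokine Ccl7 1.30 ± 0.30, and in all 3 genes the groups did not overlap. Over all tested genes 2.18% were higher and 1.7% lower without overlap. P-selectin (Selp) gave 1.01 ± 0.32 with overlap. The list level was -0.28, -0.24, 0.05 and 0.47 in the vehicle mice and 0.78, 0.54, 0.20, 0.36 and 0.80 in the oxaliplatin mice, so vehicle mouse 4 lay within the treated range. Macrophage and antigen-presenting cell markers had 15 of 19 below 0 (median -0.39). That median was 0.19 without vehicle mouse 4, and the part of these cells in the rise was not tested.

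Nr1d1, the REV-ERBα repressor of the circadian clock, rose. It had 105, 86.3, 60.6 and 72.3 CPM with vehicle and 175, 268, 211, 225 and 165 with oxaliplatin (1.37 ± 0.19, edgeR adjusted p = 0.0211). All treated mice were above all controls, and mice 1 and 5 were the lowest of the treated. The call was lost without vehicle mouse 3, oxaliplatin mouse 1 or oxaliplatin mouse 4 (highest adjusted p 0.112). The clock list, chosen with earlier results known, went both ways: 9 of 20, Nr1d1 included, were above 0 (median -0.08). At an unadjusted p under 0.05, 6 were higher and 4 lower, against 4.8% and 4.79% of all tested genes. Bhlhe40, a repressor of CLOCK and BMAL1, gave 0.70 ± 0.16 and its relative Bhlhe41 -0.48 ± 0.14. Each was without overlap of the groups, as in 3.89% of all tested genes. Ciart, a further repressor, gave 1.02 ± 0.25, with 14.6, 29.1, 35.3, 30.7 and 18.3 CPM in the oxaliplatin mice and mice 1 and 5 again lowest. Arntl, which encodes BMAL1 and is repressed by REV-ERBα, gave 1.07 ± 0.31, with 2.87, 3.54, 5.62 and 6.05 CPM in the vehicle and 14.8, 8.81, 5.95, 6.06 and 12.1 in the oxaliplatin mice. Here mice 1 and 5 were the highest. The sources used here do not give the hour of tissue collection. Nr1d1 overlaps Thra on the opposite strand, which gave 0.37, and counting by strand is not stated.

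Smtnl2, a smoothelin-like gene of striated muscle, fell, and its level was nearly equal in the 5 treated mice. It had 147, 127, 208 and 158 CPM with vehicle and 73.4, 77.3, 79.3, 71.5 and 75.6 with oxaliplatin (-1.08 ± 0.14, 95% confidence interval -1.39 to -0.78, edgeR adjusted p = 0.0127). The groups did not overlap, and vehicle mouse 3 was highest. The call was lost without oxaliplatin mouse 1 or 4 (highest adjusted p 0.0507). Of the 20 tested genes of mechanical stress and the Z-disc, where Smtnl2 was listed, 14 were above 0 (median 0.16). Cavin4, a caveolar coat protein of the fibre, had 79.7, 70.5, 70.8 and 74.4 and then 106, 95.4, 95.0, 99.8 and 97.3 CPM (0.42 ± 0.10, edgeR adjusted p = 0.143). Xirp1, an actin-binding protein of damaged fibres, gave 1.06 ± 0.26 and was highest in oxaliplatin mice 1 and 5. Neither was called.

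Amd1, the S-adenosylmethionine decarboxylase that supplies the building block of spermidine and spermine, fell. It had 415, 314, 608 and 567 CPM with vehicle and 117, 149.6, 177, 222 and 80.6 with oxaliplatin (-1.68 ± 0.28, edgeR adjusted p = 0.0486). The highest treated mouse was below the lowest control, and oxaliplatin mouse 5 was lowest. The transcripts of Amd1 and Amd2 are identical at 99.56% of 3204 aligned bases, so reads can be split between them. Amd2 counts were 27.4% to 35.9% of those of Amd1 in each library, and Amd2 gave -1.54 ± 0.29 (adjusted p = 0.0629), which does not stand as a separate measurement. Amd1 was called in 1 of the 9 leave-one-out fits, the one without vehicle mouse 2 (highest adjusted p 0.172).

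Polyamine and methionine genes were mostly below 0, with 19 of 26 lower and a median of -0.15. Past Amd1, 5 were lower and 2 higher at an unadjusted p under 0.05, against 4.79% and 4.8% of all tested genes. Both the 19 and the 5 include Amd2, which shares its reads with Amd1. The list was chosen with earlier results known. Smox, which oxidises spermine, had 138, 95.1, 201 and 157 and then 82.2, 82.4, 89.4, 111 and 62.3 CPM (-0.79 ± 0.21), with an overlap of the groups. Adi1, a dioxygenase of methionine salvage, gave -0.43 ± 0.11 without overlap. Odc1, the first enzyme of polyamine synthesis, gave -0.40 ± 0.29, and Gnmt, which uses S-adenosylmethionine to methylate glycine, gave 1.48 ± 0.42. Both overlapped between the groups.

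The remaining called genes came from several functions. Car14, a membrane carbonic anhydrase of muscle, had 39.2, 38.3, 33.8 and 24.3 and then 66.0, 61.4, 86.0, 68.5 and 94.7 CPM (1.15 ± 0.17, edgeR adjusted p = 0.0278). Ifrd1, a regulator of muscle differentiation and regeneration, had 22.7, 20.7, 27.6 and 20.3 and then 54.8, 35.6, 35.5, 46.1 and 56.2 CPM (1.001 ± 0.17, edgeR adjusted p = 0.0443), and mice 1 and 5 were its highest. St6galnac4, a sialyltransferase, rose from 10.8 ± 1.96 to 20.8 ± 3.40 CPM (0.96 ± 0.16, adjusted p = 0.0443). Golga7b, a partner of palmitoyl transferases, rose from 4.52 ± 0.753 to 9.04 ± 1.34 CPM (1.001 ± 0.16, adjusted p = 0.0414). Hectd2os rose from 2.83 ± 0.872 to 8.64 ± 2.66 CPM (1.603 ± 0.27), and the gene on the opposite strand that it overlaps, Hectd2, gave -0.44. These 5 genes kept their calls in 4 (Car14) or 1 of the 9 leave-one-out fits. Car14 and Angpt2 also overlap genes on the opposite strand, Aph1a and Mcph1, which gave -0.01 and 0.00. Pfkfb3, Ccl2, Icam1, Cdk19, Ifrd1 and St6galnac4 overlap less expressed or untested genes on the opposite strand, and reads of such pairs cannot be told apart without strand.

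The other genes that fell were at low to moderate levels. Pthlh, a parathyroid hormone-like peptide that relaxes smooth muscle, had 4.68, 2.04, 5.83 and 4.16 CPM with vehicle and 1.05, 1.39, 1.501, 1.33 and 1.63 with oxaliplatin (-1.598 ± 0.28, edgeR adjusted p = 0.0486). Vehicle mouse 2 lay close to the treated mice. Paqr7, a membrane progestin receptor, had 11.1, 12.3, 12.4 and 15.4 and then 3.90, 5.56, 7.05, 7.23 and 6.36 CPM (-1.09 ± 0.18). Cdk19, a kinase of the Mediator complex, fell from 6.64 ± 1.57 to 3.09 ± 0.410 CPM (-1.10 ± 0.19). Lonrf1, a RING finger protein, fell from 3.26 ± 0.585 to 1.45 ± 0.205 CPM (-1.16 ± 0.20). Acat2, which joins acetyl-CoA units at the start of sterol synthesis, had 14.6, 13.5, 14.95 and 14.9 and then 7.51, 9.56, 7.60, 9.13 and 10.2 CPM (-0.72 ± 0.12). The adjusted p in edgeR was 0.0443 to 0.0488 over these 5 genes, and each kept its call in at most 1 of the 9 leave-one-out fits. Among 28 sterol and fatty acid synthesis genes 15 were below 0 (median -0.04), and the sterol regulator Srebf1 gave 0.51 ± 0.19.

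Cdkn1a (p21), which p53 induces to halt the cell cycle, had the smallest p among the genes that missed the threshold in the main edgeR fit. It had 5.13, 6.07, 9.64 and 6.33 CPM with vehicle and 90.5, 40.4, 33.7, 33.0 and 125 with oxaliplatin (3.25 ± 0.49, edgeR adjusted p = 0.0526). Every treated mouse was over 3 times the highest control, and mice 1 and 5 were over 2 times the other treated mice. With those 2 mice left out it was 2.40 and passed (edgeR adjusted p = 0.00424). It also passed in DESeq2 (adjusted p = 2.63e-08) and in limma-voom (adjusted p = 0.0259). In edgeR it passed with mitochondrial genes removed (adjusted p = 0.0475) and in 1 of the 9 leave-one-out fits. Next in order of p were Pgf, Gstm2, Icam2, Pdia5, Ak4, Mylk4, Ocstamp, Neu2 and Gm4544, at adjusted p of 0.0526 to 0.0541. Gstm2, a glutathione transferase, had 54.8, 42.9, 58.1 and 49.4 and then 119, 75.3, 77.3, 102 and 119.6 CPM. Mylk4, a myosin light chain kinase family gene of striated muscle, had 1118, 1095, 1441 and 1808 and then 585, 667, 719.7, 830.2 and 576 CPM (-1.02 ± 0.18). Ak4, a mitochondrial adenylate kinase, had 3.16, 2.61, 1.64 and 2.23 and then 4.46, 6.07, 9.70, 9.19 and 5.08 CPM. None of the 10 overlapped between the groups, as in 3.89% of all tested genes. They were taken by their small p, which itself favours groups that lie apart.

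The p53 targets lay above 0 in 22 of 27 tested genes, with a median of 0.31. In edgeR 0 were called, against 0.163% of all tested genes. At an unadjusted p under 0.05, 9 were higher, against 4.8% of all tested genes. Acer2, called above, is also known as a p53 target but was listed with the ceramide genes and is not among these 27. Btg2, which restrains growth, gave 0.90 ± 0.21, Bax, a trigger of apoptosis, gave 0.69 ± 0.16, and the stress sensor Sesn1 gave 1.36 ± 0.36. The groups did not overlap in these 3 genes, as in 2.18% of all tested genes on the higher side. A small p, by which they were named, favours groups that lie apart. DESeq2, which called 248 genes in all, called Btg2, Bax, Sesn1 and Cdkn1a. The list level was -0.08, 0.01, 0.04 and 0.04 in the vehicle mice and 0.76, 0.19, 0.34, 0.24 and 0.75 in the oxaliplatin mice. All treated mice were above all controls, mice 2 and 4 by the least. The growth and stress hormone gene Gdf15 was below the count filter, with 61 counts in oxaliplatin mouse 1, 18 in mouse 5, 2 to 3 in the other treated mice and 1 to 3 in the controls. Genes of DNA crosslink repair stayed near the background: 11 of 20 were above 0 (median 0.03), and Ercc1, a subunit of the nuclease that cuts beside adducts, gave 0.35 ± 0.11.

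Genes of wasting and of glucocorticoid response were uneven within the oxaliplatin group. Fbxo32 (atrogin-1), a muscle ubiquitin ligase, had 197, 184, 211 and 264 CPM with vehicle and 762, 173, 194, 131 and 519 with oxaliplatin (0.73 ± 0.51, edgeR adjusted p = 0.746). Mice 1 and 5 were above every control, and mice 2 to 4 were within or below the control range. Trim63 (MuRF1), the other classic ligase of atrophy, had 178, 185, 201 and 184 and then 429, 177, 177, 177 and 343 CPM, with the same 2 mice high (0.48 ± 0.27). Without oxaliplatin mice 1 and 5 these genes gave -0.36 and -0.07. The atrophy and autophagy list had 24 of 27 above 0 (median 0.14), and its level was 0.53, 0.02, 0.10, 0.04 and 0.49 in oxaliplatin mice 1 to 5 against -0.05 to 0.10 with vehicle.

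Glucocorticoid-induced genes gave 22 of 26 above 0 with a median of 0.54, but their level was 0.51, -0.19, 0.12, 0.29 and 1.41 in oxaliplatin mice 1 to 5 and -0.44, -0.02, 0.27 and 0.19 in vehicle mice 1 to 4. Mice 2 and 3 lay within the vehicle range, mouse 4 just above it and mouse 5 far above it. Fkbp5, a chaperone of the glucocorticoid receptor, had 9.27, 9.28, 14.99 and 13.4 and then 55.5, 16.2, 28.9, 29.6 and 95.6 CPM (1.94 ± 0.50, edgeR adjusted p = 0.223). Depp1, a FOXO target linked to autophagy, had 10.8, 28.7, 16.8 and 12.9 and then 58.7, 43.1, 71.0, 78.9 and 234 CPM (2.49 ± 0.57). The metallothionein Mt1 had 13.2, 20.8, 21.0 and 17.2 and then 92.1, 20.4, 26.1, 29.9 and 133 CPM (1.74 ± 0.61), so mice 1 and 5 were again the highest. The list median was 0.20 without mouse 5 and 0.07 without mice 1 and 5, and that of the p53 targets was 0.13. Dusp1, a phosphatase that glucocorticoids also induce, gave -0.88 ± 0.26, with oxaliplatin mouse 1 lowest. None of these genes was called.

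Oxaliplatin mice 1 and 5 were also lowest in transcripts of red blood cells. Hba-a1, an α-globin gene, had 116, 112, 212 and 146 CPM with vehicle and 17.9, 349, 156, 412 and 23.2 with oxaliplatin (0.39 ± 0.90). The 5 red cell markers summed to 89.6 and 108 CPM in mice 1 and 5, 766 to 1943 in the other treated mice and 554 to 933 in the controls. Their part in the values of mice 1 and 5 was not tested. Immediate early genes were less split by mouse, with 18 of 23 above 0 (median 0.46, 0.36 without mice 1 and 5). Egr1 had 2.13, 1.91, 2.86 and 2.43 and then 5.45, 5.67, 4.30, 3.92 and 4.22 CPM (1.01 ± 0.19), and Ier3 gave 0.63 ± 0.12. Both were without a call and without overlap, as in 2.18% of all tested genes on the higher side.

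**Figure D4:**
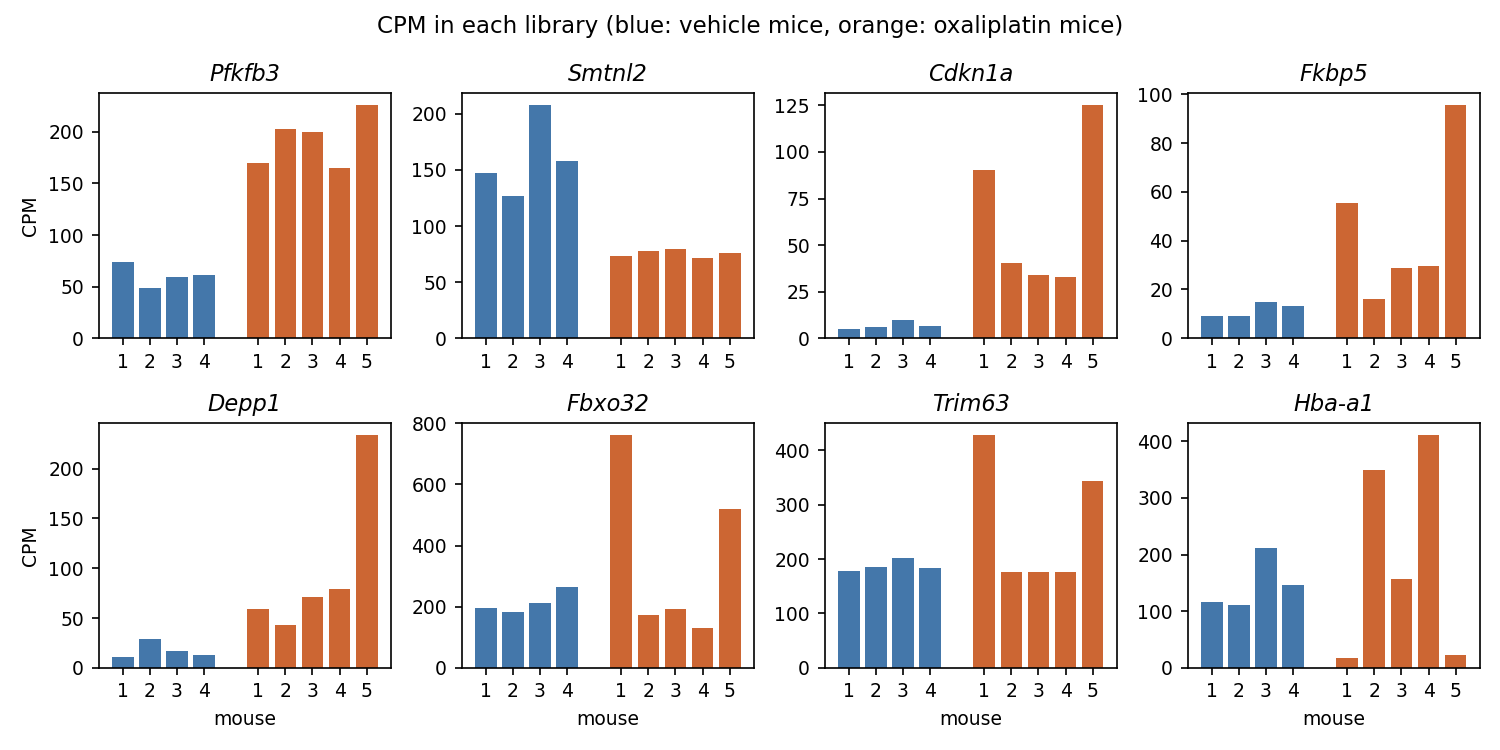
Bars give the CPM of 8 genes in each library, with vehicle mice 1 to 4 in blue and oxaliplatin mice 1 to 5 in orange, each axis starting at 0. Pfkfb3 and Smtnl2 differ between the groups at a like level in each treated mouse, whereas Cdkn1a, Fkbp5, Fbxo32 and Trim63 are highest and Hba-a1 lowest in oxaliplatin mice 1 and 5, and Depp1 is highest in mouse 5.

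The contractile and oxidative programme of the fibre showed no calls in edgeR. At the share of 0.163% over all tested genes, lists of this size would hold few or none. At an unadjusted p under 0.05 it had 2 slow fibre genes higher and 0 fast fibre, respiratory chain or fatty acid genes. Over all tested genes 4.8% were higher and 4.79% lower at that level. Of 15 fast fibre genes 8 were above 0 (median 0.00), and Myh4, the myosin of the fastest fibres, gave -0.27 ± 0.26. Of 12 slow fibre genes 4 were above 0 (median -0.34), with a level of -0.50, 0.00, -0.55, -0.81 and 0.82 in the oxaliplatin mice and 0.38, -0.49, 0.32 and -0.21 in the controls. Casq2, the calcium store protein of slow and cardiac muscle, had 62.3, 85.5, 21.8 and 25.2 and then 86.2, 103, 140.0, 121 and 97.5 CPM (1.17 ± 0.39, edgeR adjusted p = 0.336), and its groups were just apart. Sln, a brake on the calcium pump, had 4.27, 8.59, 0.839 and 1.75 and then 15.7, 9.80, 10.9, 7.14 and 14.6 CPM (1.61 ± 0.58), with overlap. The nuclear genes of the respiratory chain had 14 of 29 above 0 (median -0.02), and fatty acid uptake and oxidation 22 of 28 (median 0.08). Among 31 genes of membrane excitability and calcium release 11 were above 0 (median -0.03), and Kcnj2, an inward rectifier potassium channel, gave 0.41 ± 0.14. Of 19 denervation and junction genes 10 were above 0 (median 0.01), and the acetylcholine receptor subunit Chrna1 gave 0.63 ± 0.23. Growth signalling had 19 of 28 above 0, with Mstn, the brake on muscle growth, at 0.18 ± 0.33 and Igf1 at -0.41 ± 0.31. Foxo1, a driver of atrophy genes, gave 0.59 ± 0.38, and Mstn, Foxo1, Igf1 and Myh4 each took the other sign in at least 1 alternative.

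Targets of NRF2, the oxidant-response factor, split in direction. Of 24 tested, 16 were below 0 (median -0.13). At an unadjusted p under 0.05, 3 were higher and 5 lower, against 4.8% and 4.79% of all tested genes. Ephx1, an epoxide hydrolase, had 19.9, 19.0, 17.5 and 25.3 and then 35.2, 32.2, 29.7, 31.2 and 35.9 CPM (0.68 ± 0.13, edgeR adjusted p = 0.0541). Nqo1, a quinone reductase, had 28.2, 30.3, 26.7 and 30.1 and then 21.6, 21.2, 17.0, 15.5 and 14.2 CPM (-0.69 ± 0.14, edgeR adjusted p = 0.0683). Neither gene overlapped between the groups, as in 3.89% of all tested genes, and neither was called.

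Connective tissue genes lay below 0, with the highest levels in vehicle mice 3 and 4. Of 25 fibroblast and matrix genes 22 were below 0 (median -0.81) and none was called, against 0.163% of all tested genes. At an unadjusted p under 0.05, 12 were lower, against 4.79% of all tested genes. Col1a1, the main chain of type I collagen, had 71.1, 96.1, 259.8 and 279 CPM with vehicle and 5.97, 118, 20.8, 39.7 and 18.4 with oxaliplatin (-2.12 ± 0.84). Vehicle mice 3 and 4 were the highest, and vehicle mice 1 and 2 lay within the treated range. Against vehicle mice 1 and 2 alone the median of the list was -0.03. Col15a1, a basement membrane collagen, had 4.92, 4.72, 3.28 and 5.32 and then 0.755, 3.14, 2.95, 2.84 and 0.861 CPM (-1.13 ± 0.40), and its groups did not overlap.

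Tendon markers had the lowest median of the lists, -1.84, with 7 of 8 below 0. Cilp2, a matrix protein of tendon and cartilage, had 0.861, 1.10, 3.18 and 3.22 CPM with vehicle and 0.197, 0.675, 0.350, 0.347 and 0.267 with oxaliplatin (-2.53 ± 0.47, edgeR adjusted p = 0.0595), and its groups did not overlap. Tnmd, tenomodulin, had 8.08, 5.38, 17.5 and 30.2 and then 0.755, 9.44, 2.55, 4.20 and 2.41 CPM (-1.99 ± 0.72), with overlap. The 8 markers summed to 270, 149, 738 and 1340 CPM in vehicle mice 1 to 4, and to 79.9 to 358 CPM in the treated mice. The list median was -0.08 against vehicle mice 1 and 2 alone. How much tendon each sample held, and its part in these values, was not tested.

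Genes of antigen presentation followed the same 2 controls in part. The macrophage and antigen-presenting cell list summed to 99.6, 137, 280 and 562 CPM in vehicle mice 1 to 4 and to 87.4 to 214 CPM in the treated mice. H2-Aa, a class II MHC chain, had 6.60, 14.0, 21.0 and 39.0 CPM with vehicle and 9.84, 3.45, 3.90, 3.63 and 2.58 with oxaliplatin (-2.11 ± 0.55). H2-Ab1 gave -2.20 ± 0.58, H2-Eb1 -1.997 ± 0.61 and the invariant chain gene Cd74 -2.18 ± 0.67. In each of the 4 genes oxaliplatin mice 2 to 5 were below every control, and mouse 1 was within the control range.

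Other lists were mixed. Interferon-stimulated genes had 15 of 20 above 0 (median 0.15), heat shock genes 7 of 18 (median -0.04) and cell cycle genes 2 of 14 (median -0.09). Platinum transport and metal binding genes had 8 of 11 above 0 (median 0.13). Among cell types, Schwann cell and nerve markers had 10 of 13 above 0 (median 0.32) and satellite cell markers 4 of 9 (median -0.01). Adipocyte markers had 5 of 12 above 0 (median -0.35), and their sum was 242 to 1003 CPM with vehicle, highest in mouse 4, and 281 to 463 with oxaliplatin. Without vehicle mouse 4 the median was 0.27 for the adipocyte and 0.12 for the cell cycle list, and those of the heat shock and satellite cell lists, near 0, also turned on leaving out 1 library. None of these 7 lists held a gene called in edgeR. With 0.163% of all tested genes called, lists of this size would hold few or no calls in any case.

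The B cell genes Cd79a, Cd79b and Ms4a1 had few or no counts in the treated muscles, while the antibody heavy chain gene Ighm was present in all. The first 3 were removed by the count filter and were picked from the lymphocyte markers after their values were seen, so they are described with no test. Cd79a and Cd79b, the signalling chains of the B cell receptor, had 7 to 36 and 9 to 44 counts in the controls, and 0 to 1 and 0 to 4 in the treated. Ms4a1, which encodes CD20, had 14, 2, 17 and 17 counts in the controls and 0, 0, 0, 0 and 1 in the treated. In none of the 3 genes did the groups overlap.

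The 3 genes together were at 1.56, 0.733, 3.39 and 2.63 CPM in vehicle mice 1 to 4 and at 0.0297 to 0.250 CPM in the treated. Vehicle mice 3 and 4, which were also high in tendon and matrix markers, had the highest sums, and every control was above every treated mouse. The part of those tissue differences in these values was not tested. Igkc, the κ light chain of antibodies, gave -4.94 (edgeR adjusted p = 0.177). Ighm had 44.4, 26.1, 67.9 and 41.96 CPM with vehicle and 3.58, 14.2, 25.8, 42.4 and 2.41 with oxaliplatin (-1.35, edgeR adjusted p = 0.675), so mouse 4 lay within the control range. The T cell gene Cd3e gave 0.31 (0.913), with 4 to 23 counts in the controls and 11 to 27 in the treated. In bulk tissue, fewer B cells and less RNA per B cell cannot be told apart.

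**Figure D5:**
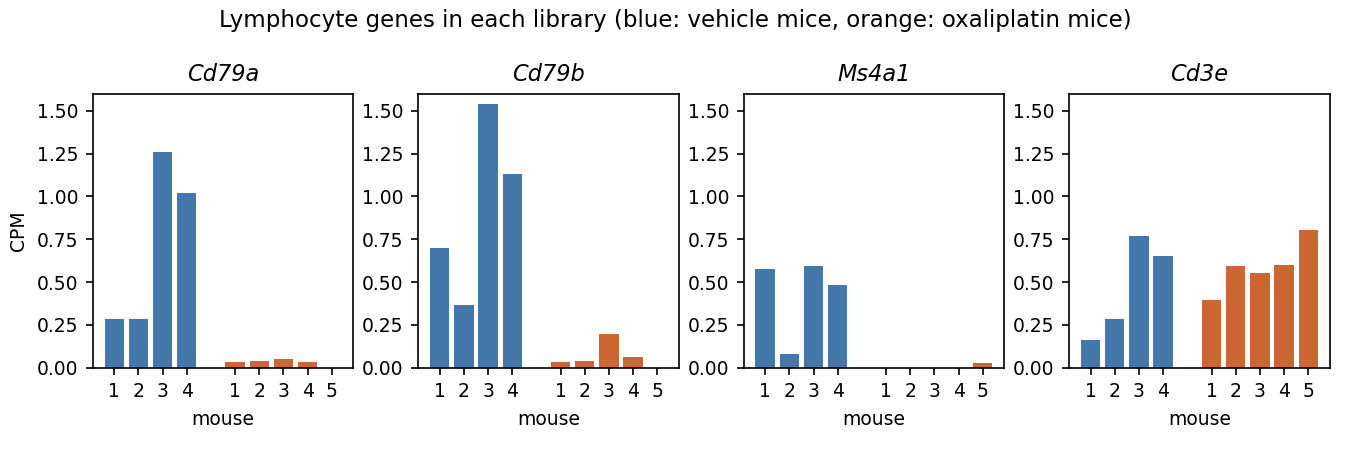
CPM of 3 B cell genes and of the T cell gene Cd3e in each library, on 1 common axis, with vehicle mice in blue and oxaliplatin mice in orange. The B cell genes are at or near 0 in the 5 oxaliplatin mice, whose 3-gene sum does not pass 0.250 CPM, while Cd3e is present in every library.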

How the data were processed

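RNA of 9 tibialis anterior samples was sequenced after library preparation with a Clontech SMARTer kit, per the labels' protocols. The submitters' processing notes list the aligner STAR 2.5.1a with Partek and DESeq2, without saying what each did. The authors deposited expected counts, which are estimates of reads per gene before any scaling, and 45.2% of these values were not whole. The design had assumed whole counts, so values were rounded first. The lowest row sum was 10, and 34 of 20628 rows carried joined identifiers. The build behind the table was not given in the sources used here. For 99.5% of 14707 identifiers found in both, the gene start was the one in GENCODE M21 (GRCm38), and coordinates are from that annotation, counted from 1. No 2 libraries of a group were copies (16 pairs, lowest chi-square per degree of freedom 20.6).

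Genes were kept by filterByExpr (minimum count 10, minimum total 15; 14737 left), scaled by TMM, and tested with edgeR 4.0.16 (R 4.3.3) by the robust quasi-likelihood F test. The SE is the log2 fold change over the square root of F. Cell type and pathway lists, the members and the rule for named genes were chosen with earlier results of these data known. The rule took all called genes, the 10 next by p, the 4 lowest p in each list, 9 genes of wasting and drug stress, and the ends of 2 principal components. Pfkm, Pfkfb1, Pfkfb2, Pfkfb4, Th, Ddc, Arntl, Ccl7, Cxcl14, Selp, Vwf, H2-Eb1, Cd74, Odc1, Gnmt, Col1a1, Tcap, Gdf15 and the lymphocyte genes were named after their values were seen. List levels use log2 CPM with a prior count of 2. Promoter windows are from RefSeq (GRCm38.p6). Alternatives were other scalings, DESeq2 1.42.0, limma-voom 3.58.1, other filters, unrounded values, the mouse number as a block, mouse 5 as vehicle, each library left out, and, added after seeing the data, oxaliplatin mice 1 and 5 or vehicle mice 3 and 4 left out. One gene of the marker lists is not reported here.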

Additional observations from a re-analysis of the deposited data

Results flagged for a closer look

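In 13 of 250 groups of 4 or 5 libraries, the highest or lowest library stood apart from the rest of its group by Dixon's 95% critical value, and chance gives such a gap in about 1 in 20 groups. Oxaliplatin mouse 1 was highest of its group in H2-Aa at 9.84 CPM (others 2.58 to 3.90), in H2-Eb1 at 8.10 CPM (1.57 to 2.34) and in Cd74 at 62.9 CPM (13.5 to 20.8). It was also highest in Odc1 at 16.0 CPM (7.22 to 9.06) and in Ugp2 at 453 CPM (339 to 363). The same mouse was highest in the summed macrophage markers at 214 CPM (87.4 to 122) and in the summed lymphocyte markers at 4.33 CPM (2.10 to 2.55). Oxaliplatin mouse 5 was highest in Depp1 at 234 CPM (43.1 to 78.9) and in Errfi1, a feedback inhibitor of the EGF receptor, at 30.7 CPM (17.2 to 20.1), and lowest in Adi1 at 32.2 CPM (38.9 to 41.1). Oxaliplatin mouse 2 was highest in the matrix protease Mmp2 at 36.0 CPM (17.1 to 20.5), and oxaliplatin mouse 3 in the sialidase Neu2 at 28.6 CPM (22.3 to 22.8). Vehicle mouse 4 had the highest total of its group at 31.2 M counts (27.3 to 27.9). The causes were not tested.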

How the results depend on the processing

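The number of called genes was 24 (17 higher, 7 lower). It was 22 to 30 with RLE or upper quartile scaling, mitochondrial genes removed, a mean of at least 1 CPM or unrounded values, and 19 with a log2 change of at least 1. DESeq2 called 248 (155 higher, 93 lower), limma-voom 13 (12 higher, 1 lower) and edgeR without a filter 42 (28 higher, 14 lower). DESeq2 called all of the 24, limma-voom 12. Leaving out 1 library gave 2 to 17 calls, 2 to 13 higher and 0 to 8 lower. With oxaliplatin mouse 5 set to vehicle edgeR called 0 genes, 0 higher and 0 lower, with 701 at an unadjusted p under 0.05. Without oxaliplatin mice 1 and 5 there were 8 calls, 8 higher and 0 lower, 4 of them among the 24. Without vehicle mice 3 and 4 there were 27, 9 of them among the 24. The causes were not tested, beyond fewer samples in the fits that leave some out.

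The mouse number as a replicate block gave 3 calls, 3 higher and 0 lower, 2 of them among the 24, with 1043 genes at an unadjusted p under 0.05. Deviations from the group means correlated at 0.0512, -0.0936, -0.177 and 0.174 between mice of the same number, for numbers 1 to 4. Between mice of different numbers they correlated at -0.408 to 0.321. So few pairs cannot decide whether the numbers pair the samples, and the sources used here do not say.

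No called gene changed sign in any of 528 alternative fits. Their groups did not overlap, so leaving out libraries or scaling otherwise could hardly turn a sign. The setting with a log2 change of at least 1 reuses the main fit. Of 2462 fits of the 112 named genes, 13 changed sign. Without oxaliplatin mice 1 and 5 these were Fbxo32 (-0.36), Trim63 (-0.074), Mstn (-0.22) and Foxo1 (-0.012). With mouse 5 as vehicle they were Mstn (-0.058), Foxo1 (-0.13) and Mt2 (-0.62), and without vehicle mice 3 and 4 Igf1 (0.27), Myh4 (0.22) and Odc1 (0.038). Hba-a1 turned in limma-voom (-0.49) and without oxaliplatin mouse 4 (-0.093; range on leaving out 1 library -0.093 to 0.68), and Mstn without vehicle mouse 2 (-0.0041; range -0.0041 to 0.51). The mitochondrial share, oxaliplatin minus vehicle, was -1.49 percentage points, and leaving out 1 library gave -3.23 to 0.431, the last without vehicle mouse 2. Of 777 alternative list medians 90 changed sign.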
